A study of Mus musculus with 6 samples.

Results

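The genes described here encode the DNA-binding partners of beta-catenin, Tcf7, Tcf7l1, Tcf7l2 and Lef1, and 3 of its nuclear coactivators, Bcl9, Bcl9l and Pygo2. They were chosen by symbol, through the Ensembl identifiers of the count table. All 7 were found among the 55401 genes of the table, and all 7 held enough counts to be among the 17325 genes tested. Total RNA was sequenced from V6.5 mouse embryonic stem cells, a line from hybrid mouse embryos, in 3 wild-type (WT) libraries and 3 libraries of V6.5 cells with the genotype Cdh1-/-, which lack both working copies of the E-cadherin gene (knockout). No treatment or time point is given for either genotype. The labels do not say whether the knockout cells are 1 clone or whether replicates A, B and C came from separate cultures, so p-values measure only the spread between these libraries, which may be technical.

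TCF and LEF proteins bind the same short DNA motif through a domain called the HMG box and recruit beta-catenin through their N-terminal end. Without beta-catenin they hold Groucho/TLE corepressors at their targets. With beta-catenin bound, Bcl9 or Bcl9l bridges it to a Pygo protein, and transcription is activated. In embryonic stem cells Tcf7l1 is known mainly as a repressor of pluripotency genes, whereas Tcf7 and Lef1 are known mainly as activators. E-cadherin binds beta-catenin at the cell membrane, and the title of the series concerns its effect on the stability and activity of beta-catenin. Transcript counts carry no measure of protein.

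Total counts per library lay between 18020719 and 23381942. Cdh1 itself was counted at 537 to 571 CPM (counts scaled to the effective size of each library) in the WT libraries and at 166 to 183 CPM in the knockout libraries, so its level went with the labels. Stem cell identity was checked on Pou5f1, Sox2, Zfp42, Sall4, Utf1 and Tdgf1. Their summed level was 3060 to 3349 CPM in WT against 3526 to 4404 CPM in the knockout. Of these 6 genes Tdgf1 alone (16.7%, against 13.3% of all tested genes) had an adjusted p under 0.05 in edgeR's test (0.000175). Its mean rose from 1302 to 2014 CPM. Zfp42 had an unadjusted p of 0.0148 in the same test (adjusted p 0.0863). The means of Pou5f1, Zfp42 and Utf1 were also higher without Cdh1, and those of Sox2 and Sall4 were lower. On the second principal component knockout replicate A stood apart from the other knockout libraries, and WT replicate C stood apart from the other WT libraries, next to knockout replicate C. Over all tested genes the median log2 fold change was -0.33 on chromosome 1, 0.53 on chromosome 14 and -2.56 over the 6 genes of chromosome Y, and none of the 7 genes described here lies on any of them.

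The 4 factors are most alike in their HMG box, so their separation in the counts was checked on sequence. The 90 coding bases of Lef1 with the highest summed identity to the other 3 lie in that box. They are shown for the longest complete coding sequence of each gene, read from the GENCODE M21 transcripts (GRCm38), with capitals at each base that differs from Lef1.
Lef1: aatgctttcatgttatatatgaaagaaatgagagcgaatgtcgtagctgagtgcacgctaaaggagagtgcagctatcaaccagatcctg
Tcf7: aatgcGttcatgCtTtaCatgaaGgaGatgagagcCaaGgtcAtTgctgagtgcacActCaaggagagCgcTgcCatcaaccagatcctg
Tcf7l1: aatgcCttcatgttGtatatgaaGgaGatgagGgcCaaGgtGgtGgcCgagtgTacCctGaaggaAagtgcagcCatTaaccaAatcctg
Tcf7l2: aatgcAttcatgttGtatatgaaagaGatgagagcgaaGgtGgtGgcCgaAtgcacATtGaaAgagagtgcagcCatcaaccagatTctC
Tcf7 and Tcf7l2 each differed from Lef1 at 15 of these 90 bases, and Tcf7l1 at 17. Across all annotated transcripts the longest run of identical bases between any pair of the 4 genes was 23 bases, found between Lef1 and Tcf7l1 and between Tcf7l1 and Tcf7l2. The stretch of Lef1 lies on the plus strand at chr3:131194689-131194778.

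Lef1 was far lower in the knockout, while no other gene of the group passed the test. Lef1 was counted at 13.3 CPM in WT replicate A, 13.4 CPM in B and 10.4 CPM in C. In the knockout it was counted at 0.884 CPM in replicate A, 1.57 CPM in B and 0.959 CPM in C. The groups were far apart, and the highest knockout library lay well under the lowest WT library. In bulk libraries fewer cells of a type and less RNA per cell cannot be told apart. The knockout mean was 9.20% of the WT mean. The log2 fold change was -3.42 (standard error 0.26, 95% interval -3.97 to -2.86), and edgeR's quasi-likelihood test, adjusted over all genes, gave an adjusted p of 2.4e-06. The raw counts behind these levels were 295, 266 and 208 in WT and 16, 36 and 19 in the knockout, all above the floor of 6 counts under which a level is not told from 0. Lef1 passed the threshold in all 16 alternative fits, with log2 fold changes between -3.72 and -3.27.

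Genes with an adjusted p under 0.05 are termed called. They made up 13.3% of all tested genes, 7.6% called higher and 5.71% called lower. Of the 7 members 0 were called higher and 1, Lef1, was called lower. With 1 call among 7, the share of called members was close to that of all genes, and their median log2 fold change was -0.012 against -0.0071 over all tested genes. At an unadjusted p under 0.05 in edgeR's test there were 2 of the 7 members, Lef1 lower and Tcf7l1 higher, against 4622 of all 17325 tested genes. DESeq2 and limma-voom likewise called Lef1 alone.

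**Figure D1:**
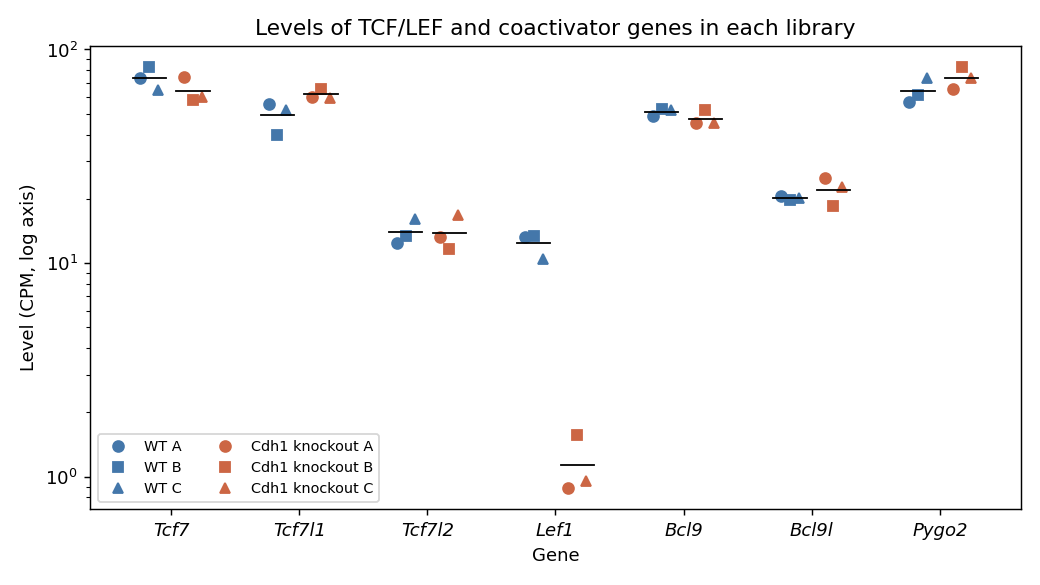
Level of each gene in CPM (log axis) in the 3 WT libraries (blue) and the 3 Cdh1 knockout libraries (orange), with replicates A, B and C as circles, squares and triangles and black bars at the means. The Lef1 levels fall from 10.4 to 13.4 CPM in WT to between 0.884 and 1.57 CPM in the knockout, and for Tcf7l1 alone among the other genes the groups do not overlap.

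Lef1 (ENSMUSG00000027985.14) spans chr3:131110471-131224356 on the plus strand in GRCm38. Exons of Gm43352, a gene annotated as antisense to it, cover 34.5% of its 3506 exon bases. Gm43352 had 6, 5 and 0 counts in the WT libraries and 0 in each knockout library. Whether strand was used in counting is not given in the sources used here, so reads over the shared 1208 bases cannot be assigned to one strand for certain. Counts are sums over all exons and do not tell apart the full-length Lef1 transcript from those that start further inside the gene.

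Because Lef1 is itself described as a target of beta-catenin and TCF, its start sites were searched for their motif. RefSeq (GRCm38.p6) lists 13 start-site windows of 300 bases, 250 before and 50 after the start, for 6 of the 7 genes, and no Bcl9l window was used. The motif was searched on both strands as CTTTGAA, then as CTTTGAT, then as CTTTGTA and last as CTTTGTT. These spellings differ only in their final letters, so 1 site on a strand matches 1 of them. Of the 13 windows, 2 held a match, against 16.9% of all 32851 windows. One belongs to Lef1 and one to Tcf7l2, each at a start site far inside the gene. The 250 bases before the most upstream Lef1 start, chr3:131110047-131110296 on the plus strand, are shown first and hold no match. The 250 bases before the innermost Lef1 start, chr3:131156044-131156293 on the plus strand, follow, with the match, CTTTGTA on the other strand, in capitals.
Lef1, most upstream start: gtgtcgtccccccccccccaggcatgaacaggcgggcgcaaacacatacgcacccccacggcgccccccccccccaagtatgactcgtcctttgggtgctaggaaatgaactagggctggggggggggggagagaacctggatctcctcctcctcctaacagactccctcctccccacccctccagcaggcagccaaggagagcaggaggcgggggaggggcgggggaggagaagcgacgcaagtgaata
Lef1, innermost start: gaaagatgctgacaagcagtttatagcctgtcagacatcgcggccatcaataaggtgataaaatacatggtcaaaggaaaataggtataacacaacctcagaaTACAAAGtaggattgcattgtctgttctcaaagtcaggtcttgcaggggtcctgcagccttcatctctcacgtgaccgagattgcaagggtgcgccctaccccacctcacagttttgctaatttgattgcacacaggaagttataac
The GC content of the first stretch is 66.4% and that of the other 44.8%. A match is a description of the letters, and no binding was measured.

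None of the tested genes around Lef1 was called. Within 500 kb of it 7 genes were tested, and in edgeR's test 2 of them, Gm5855 and Papss1, had an unadjusted p under 0.05. Over the whole table this held for 4622 of 17325 tested genes. Papss1 was named after its values were seen. Hadh, which encodes an enzyme of fatty acid oxidation and lies on the minus strand 9063 bases beyond the end of Lef1, had 144 ± 4.60 CPM in WT against 146 ± 17.1 CPM without Cdh1 (SD, n = 3 each). The nearest tested gene on the other side, the pseudogene Gm5855, had 4.14 ± 0.545 CPM in WT against 2.79 ± 0.0825 CPM without Cdh1 (SD, n = 3 each). The groups of Gm5855 did not overlap, which held for 30.7% of all tested genes, and its log2 fold change of -0.57 had an adjusted p of 0.171. The log2 fold changes of the 7 neighbours ran from -0.57 to 0.47.

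**Figure D2:**
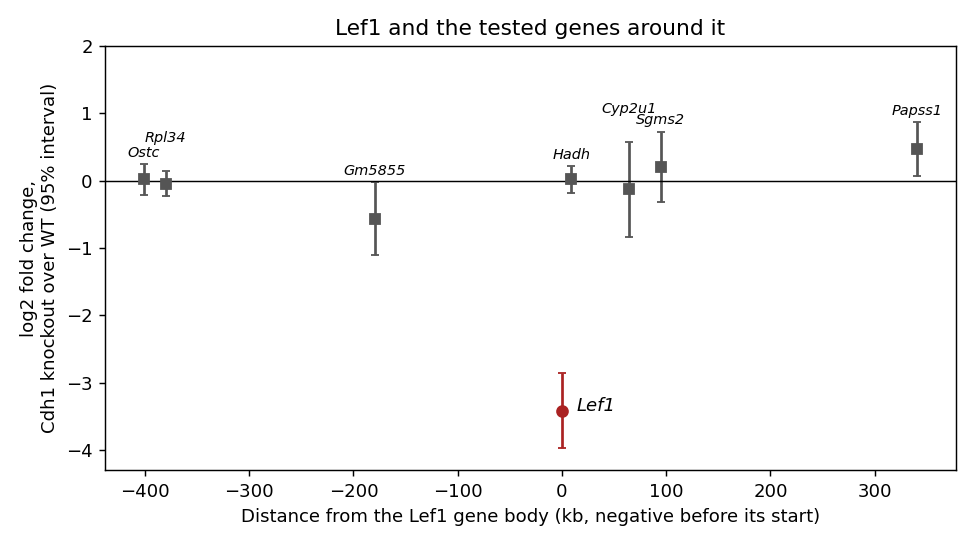
Log2 fold change of Lef1 (red circle) and of the 7 tested genes within 500 kb of it (grey squares), plotted against distance from the Lef1 gene body in kb, with 95% intervals. The neighbours lie between -0.57 and 0.47, and Lef1 lies at -3.42.

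The likeness of expression patterns was compared over 12847 other tested genes averaging 50 counts or more. Those whose pattern over the 6 libraries was most like that of Lef1 were Zfp264, Slfn9, Aurkc, Vgf and Pax6. Likeness was the root mean square difference of log2 CPM after each gene's own mean was removed, and it was 0.31 for Zfp264, 0.34 for Slfn9, 0.46 for Aurkc, 0.49 for Vgf and 0.59 for Pax6. The measure picks genes that fell by a like amount in the same 6 libraries. Zfp264, a zinc finger gene annotated as a transcribed pseudogene, went from 13.4 ± 2.38 CPM to 1.63 ± 0.502 CPM (SD, n = 3 each). Zfp264 (chr7:6977246-6991087) and Aurkc (chr7:6995300-7003091), which encodes a kinase known from meiosis, lie side by side. Vgf encodes a secreted neuropeptide precursor. Pax6, a neural and eye transcription factor, went from 17.3 ± 3.82 CPM to 1.98 ± 0.680 CPM (SD, n = 3 each).

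Markers of other cell types were read in the same libraries. Over all tested genes 13.3% were called, 7.6% higher and 5.71% lower. Of 5 tested genes of the formative and primed epiblast, 4 were called lower, and the summed level of the 6 listed genes was 255 to 285 CPM in WT against 141 to 156 CPM in the knockout. Of 4 tested neural markers, 2 were called lower and 1 higher, with a summed level of 77.8 to 102 CPM in WT and 51.6 to 67.4 CPM in the knockout, and Neurog2 at or under the floor in every library. The 2 called lower were Nes and Pax6, which was picked above for its likeness to Lef1. The 1 called higher, Pou3f2, was counted at 0.0900, 0.101 and 0.400 CPM in WT, under the floor in A and B. In the knockout it was counted at 0.774, 0.699 and 1.11 CPM. All 6 primitive endoderm markers were called higher, with a summed level of 29.6 to 50.6 CPM against 81.2 to 153 CPM. Among them, Gata4 lies on chromosome 14, whose median log2 fold change was 0.53, and Sox17 on chromosome 1, whose median was -0.33. Foxa2, another of the 6, was counted at 0.270, 0.303 and 0.200 CPM in the WT libraries, at or under the floor in each. Its call thus rests on its knockout levels of 1.11, 0.524 and 1.61 CPM. The groups of Dab2 overlapped. Of 5 tested fibroblast markers 1 was called lower, with summed levels of 27.3 to 44.4 CPM and 19.9 to 31.6 CPM and Lum at or under the floor. Of 4 tested mesoderm markers 0 passed edgeR's test, 0 also at an unadjusted p under 0.05, with summed levels of 11.5 to 16.7 CPM and 14.7 to 16.2 CPM. The part of these cell types in the Lef1 result was not tested.

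Tcf7l1 (ENSMUSG00000055799.13, chr6:72626378-72789254, minus strand), the repressor of the family, was the only other gene whose groups did not overlap, which held for 30.7% of all tested genes and, in the higher direction, for 15.7%. WT replicate A held 55.7 CPM of Tcf7l1, replicate B 40.0 CPM and replicate C 52.0 CPM. In the knockout it stood at 60.1 CPM in A, 65.3 CPM in B and 59.4 CPM in C. Replicate B was the lowest of the WT libraries and the highest of the knockout libraries. The log2 fold change of 0.32 (95% interval 0.07 to 0.58) had an unadjusted p of 0.0166 and an adjusted p of 0.0935 by edgeR, above the threshold. Without WT replicate B it was 0.19 with an adjusted p of 0.321. With no filter on low counts Tcf7l1 passed, with an adjusted p of 0.0266, and it missed in the other 15 alternatives.

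Tcf7 (ENSMUSG00000000782.16, chr11:52252371-52283331, minus strand), which like Lef1 is known as an activator, did not pass. WT replicate A held 73.3 CPM of Tcf7, replicate B 82.8 CPM and replicate C 64.6 CPM. Knockout replicate A held 74.4 CPM, replicate B 58.3 CPM and replicate C 60.0 CPM. Knockout replicate A lay among the WT libraries, and the log2 fold change was -0.20 (95% interval -0.45 to 0.05, adjusted p 0.313 in edgeR's test). It was -0.31 without knockout replicate A (adjusted p 0.0611) and -0.10 without WT replicate B (adjusted p 0.707). Tcf7l2 (ENSMUSG00000024985.20, chr19:55741820-55933654, plus strand), the factor best known from the intestine, was counted at 12.4 CPM, 13.4 CPM and 16.2 CPM in the WT libraries, against 13.3 CPM, 11.6 CPM and 16.8 CPM in those of the knockout. Replicate C was highest in both genotypes. Its log2 fold change of -0.01 had a 95% interval of -0.38 to 0.35, so a change of the size found for Lef1 lay outside the interval for both Tcf7 and Tcf7l2.

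The make-up of the family was compared on levels divided by exon length, as shares of the summed level of the 4 factors in each library. Lef1 held 7.64%, 7.99% and 6.53% of the sum in WT replicates A, B and C. In the knockout it held 0.525%, 1.02% and 0.625%. Tcf7l1 held 36.4%, 27.0% and 37.1% in WT and 40.6%, 48.0% and 44.0% in the knockout. For both genes the groups were apart, and the exact two-sided permutation test gave p = 0.10, the smallest that 3 against 3 libraries allow. Shares are parts of the same sum in each library, so a lower share of Lef1 by itself raises those of the others. The Tcf7l1 share differed by 10.7 points with all libraries. The difference was 7.45 points without WT replicate B and 8.79 without knockout replicate B (exact permutation p = 0.2 in each). The Tcf7l1 shares of the genotypes stayed apart in both cases. The share of Tcf7 was 52.4 ± 5.51% in WT and 48.1 ± 4.03% in the knockout (SD, n = 3 each; exact permutation p = 0.4). The share of Tcf7l2 was 6.66 ± 1.23% and 6.95 ± 1.48% (SD, n = 3 each; exact permutation p = 0.7).

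The summed level of the 4 factors overlapped between the genotypes. On the TPM scale (counts divided by exon length and scaled to the same total in each library) it was 128, 122 and 111 in WT and 118, 108 and 107 in the knockout (exact permutation p = 0.2). Most of the sum was Tcf7 and Tcf7l1 in every library.

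**Figure D3:**
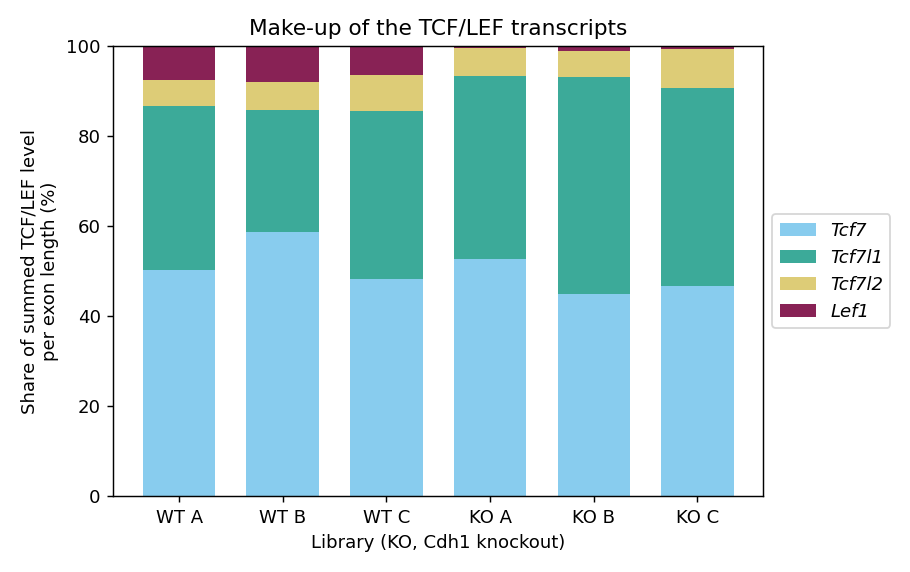
Share of Tcf7, Tcf7l1, Tcf7l2 and Lef1 in their summed level per exon length (percent) in each library, 3 WT and 3 Cdh1 knockout (KO). Lef1 holds 6.53% to 7.99% in WT and 0.525% to 1.02% in the knockout, and Tcf7l1 holds its 3 highest shares in the knockout.

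None of the 3 coactivator genes was called, and the groups of each overlapped. Bcl9 (ENSMUSG00000038256.15, chr3:97203662-97227364, minus strand), which links beta-catenin to Pygo proteins, was counted at 48.9 CPM, 52.7 CPM and 52.0 CPM in the WT libraries, against 45.1 CPM, 51.9 CPM and 45.4 CPM in those of the knockout. Its groups overlapped through knockout replicate B, and the log2 fold change was -0.11 (95% interval -0.32 to 0.11, adjusted p 0.545 in edgeR's test). Its paralog Bcl9l (ENSMUSG00000063382.6, chr9:44482825-44511896, plus strand) was counted at 20.7 CPM, 19.7 CPM and 20.2 CPM in the WT libraries, against 25.1 CPM, 18.5 CPM and 22.6 CPM in those of the knockout, which spread more widely. The log2 fold change of Bcl9l was 0.13 (95% interval -0.16 to 0.42, adjusted p 0.603 in edgeR's test), and 10.2% of its exon bases lie under exons of genes on the opposite strand.

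Pygo2 (ENSMUSG00000047824.13, chr3:89430261-89435128, plus strand), which reads a histone mark through its PHD finger, was counted at 56.8 CPM, 61.2 CPM and 73.9 CPM in WT. In the knockout it was counted at 65.4 CPM, 82.4 CPM and 73.7 CPM. The groups overlapped, and the log2 fold change was 0.21 (95% interval -0.04 to 0.46, adjusted p 0.277 in edgeR's test). Bcl9, Pygo2 and Lef1 all lie on chromosome 3, whose median log2 fold change over tested genes was -0.05. With 1 library left out, the log2 fold change ranged from -0.17 to -0.07 for Bcl9, from 0.03 to 0.25 for Bcl9l and from 0.13 to 0.33 for Pygo2, and none of these fits called any of the 3. For all 3 coactivators the intervals of the fit to all libraries lay within a log2 fold change of -0.32 to 0.46.

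On the per-length scale the order of levels in WT was Tcf7, Pygo2, Tcf7l1, Bcl9, Lef1, Tcf7l2 and Bcl9l. Tcf7 stood at 63.1 ± 9.09 TPM and Bcl9l at 6.71 ± 0.290 TPM (SD, n = 3 each). The libraries of Pygo2 and Tcf7l1 overlapped in WT, as did those of Lef1 (8.90 ± 1.45 TPM, n = 3) and Tcf7l2 (7.93 ± 0.860 TPM, n = 3), so these neighbours were not separated. In the knockout Pygo2, Tcf7 and Tcf7l1 overlapped in turn, with means of 53.5, 53.5 and 48.9 TPM. Bcl9 followed at 19.1 TPM, then Tcf7l2 and Bcl9l, which overlapped at 7.68 and 7.15 TPM. Lef1 was last at 0.796 ± 0.265 TPM (SD, n = 3), apart from all others. Its percentile among the tested genes was 40.0 to 44.2 in the WT libraries and 7.17 to 12.95 in the knockout libraries.

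Other nuclear partners of beta-catenin and TCF were read from a list of 38 genes, all of them tested. Of these, 1 was called higher and 3 lower, 10.5% against 13.3% of all genes, and the median log2 fold change was 0.01. Ctnnb1, the beta-catenin gene, was counted at 811 ± 54.4 CPM in WT against 853 ± 68.2 CPM without Cdh1 (SD, n = 3 each). Neither the antagonists Ctnnbip1 and Cby1 nor the acetyltransferases Crebbp and Ep300 passed. Pygo1, the paralog of Pygo2, was counted at 9.66 ± 1.71 CPM and 9.32 ± 1.51 CPM (SD, n = 3 each).

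The called partner with the largest change was Tnik, a kinase that phosphorylates TCF proteins. It was counted at 8.46 CPM, 8.54 CPM and 6.45 CPM in the WT libraries, against 4.03 CPM, 2.53 CPM and 2.42 CPM in those of the knockout. The groups were apart, with a log2 fold change of -1.39 and edgeR's adjusted p was 0.00190, and the call held in each fit that left out 1 library. Hipk2, another kinase described to act on TCF proteins, changed by a log2 fold change of -0.48 (adjusted p 0.0312 in edgeR's test), which was lost when WT replicate A (adjusted p 0.0674) was left out, and was 0.161 without WT replicate C, then 0.129 when leaving out knockout replicate C.

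Tle5, listed in GENCODE M21 under its older symbol Aes, is the short member of the Groucho/TLE family and was the 1 partner called higher. It was counted at 198 CPM, 202 CPM and 221 CPM in the WT libraries, against 271 CPM, 264 CPM and 247 CPM in those of the knockout. Its log2 fold change was 0.34 (adjusted p 0.0154 in edgeR's test), and the call was lost when WT replicate A was left out (adjusted p 0.0924), likewise 0.0742 without WT replicate B and 0.0502 without knockout replicate B. The full-length corepressors Tle1, Tle2, Tle3 and Tle4 and the related Tle6 did not pass. Tle6 stood at a log2 fold change of -0.35 (adjusted p 0.236 in edgeR's test), and without knockout replicate A it was called lower at -0.58 (adjusted p 0.0190). Cdc73, a subunit of the PAF complex, showed a log2 fold change of -0.35 (adjusted p 0.0250 in edgeR's test) and lies on chromosome 1, whose median was -0.33. The call of Cdc73 was lost without WT replicate B (adjusted p 0.0990), WT replicate C (0.105), knockout replicate A (0.0578) or knockout replicate B (0.0632).

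**Figure D4:**
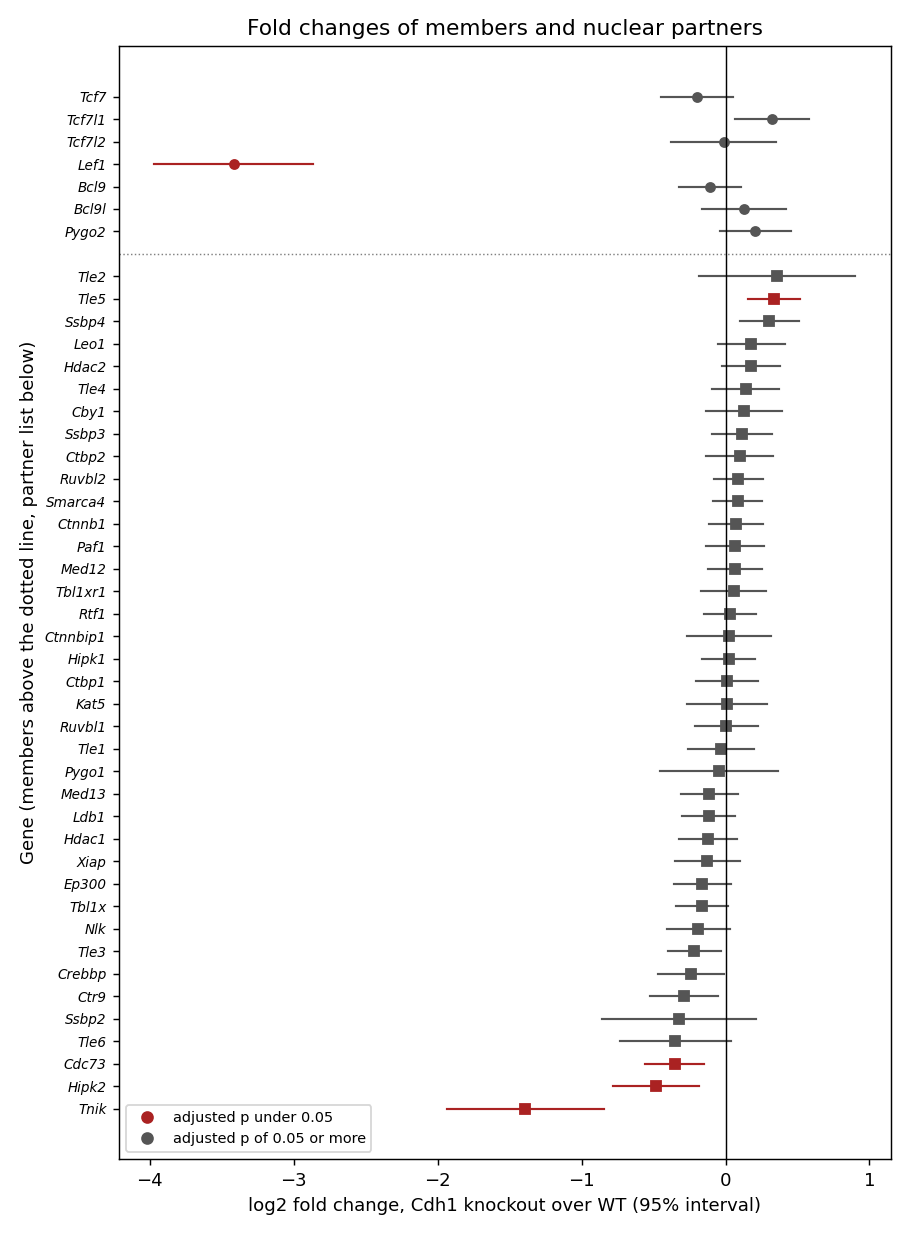
Log2 fold change of the knockout over WT with 95% intervals for the 7 members (circles, above the dotted line) and 38 nuclear partner genes (squares), red where the adjusted p is under 0.05. Lef1 lies at -3.42 and Tnik at -1.39, and Tle5 at 0.34 is the 1 red point to the right of 0.

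Genes downstream of these factors are given by their values alone. The 5 genes described as repressed by Tcf7l1 in embryonic stem cells were the pluripotency factor genes Nanog, Esrrb, Klf2, Tfcp2l1 and Tbx3. Of these, 1 was called higher and 1 lower, or 40% of a short list against 13.3% of all tested genes. Their median log2 fold change was 0.24, against -0.0071 over all tested genes. Tfcp2l1, on chromosome 1, rose with a log2 fold change of 0.69 (adjusted p 0.000222 in edgeR's test), and Klf2 fell with one of -0.60 (adjusted p 0.00144). Nanog had 0.24, Esrrb 0.10 and Tbx3 0.36, and none of these 3 passed. Without knockout replicate A, 4 of the 5 were called, 3 of them higher. That fit also called more genes over the whole table, 2784 against 2307 with all libraries.

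The 8 feedback or direct target genes of the pathway, termed feedback genes here, were Axin2, Nkd1, Sp5, T, Lgr5, Rnf43, Znrf3 and Notum. T is also among the mesoderm markers read above. Of the 8, 7 were tested, and Lgr5 was at or under the floor in every library. Notum, a secreted Wnt inhibitor, was the 1 called, or 14.3% of the tested feedback genes against 13.3% of all genes, with a log2 fold change of 1.15 (adjusted p 0.0143 in edgeR's test), and 38.3% of its exon bases lie under exons of the opposite strand. Its adjusted p was 0.0765 without WT replicate B, 0.0802 without knockout replicate B and 0.0550 without knockout replicate C. The 6 tested others had log2 fold changes of -0.33 (Axin2), -0.33 (Nkd1), -0.45 (Sp5), -0.51 (T), -0.74 (Rnf43) and -0.24 (Znrf3), and none of them passed. The median over the 7 tested genes was -0.33, against -0.0071 over all tested genes. Axin2 was counted at 13.3 CPM, 13.3 CPM and 15.8 CPM in the WT libraries, against 7.41 CPM, 12.9 CPM and 13.3 CPM in those of the knockout, where replicate A was lowest. The sizes of the 6 log2 fold changes depended on single libraries. Over the fits that left out 1 library, Rnf43 ranged from -0.30 without WT replicate B (adjusted p 0.801 in edgeR's test) to -1.38 without knockout replicate A, the 1 such fit that called it (adjusted p 0.0341). Axin2 ranged from -0.10 without knockout replicate A to -0.46 without knockout replicate C, and Nkd1 from -0.20 without knockout replicate B to -0.40 without knockout replicate C. Sp5 ranged from -0.08 without WT replicate B to -0.79 without knockout replicate C, and T from -0.26 when knockout replicate C was left out to -0.69 when knockout replicate B was. Znrf3 ranged from -0.17 to -0.33.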

How the data were processed

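Strand-specific libraries of total RNA from V6.5 cells, 3 WT and 3 Cdh1-/-, were sequenced, per the labels' protocols. Raw gene-level counts of all libraries were deposited together. The submitters' processing notes name cutadapt 2.10, STAR 2.7.5b, featureCounts 2.0.1 and build GRCm38, but the strand and pair settings are not given in the sources used here. Among counts of 1 to 10, 78.1% to 83.1% were even, so the floor was set to 6 counts, or 3 read pairs if both mates were counted.

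Counts were fitted in R 4.3.3 with edgeR 4.0.16: filterByExpr, TMM, a quasi-likelihood model with genotype as its term, and Benjamini-Hochberg adjustment over 17325 genes, called under 0.05. Intervals of 95% come from the F statistic. CPM are TMM-scaled. Libraries of one genotype differed by more than counting noise. Alternatives were other scalings and filters, DESeq2 1.42.0, limma-voom (limma 3.58.1), a replicate block, halved counts, removal of chromosomes 1, 14 and Y, and leaving out each library. Members and lists were chosen with earlier results of these data known. The text names every member, up to 8 called partners, the nearest and any called neighbours within 500 kb, and the 5 genes most like each called member. It also names every Tcf7l1-repressed and feedback gene; partners and neighbours that were not called are named outside the rule, with their values known. The fit was also run on counts simulated with known changes and its own dispersions, and the outcome is not given here. Such counts hold no shifts of whole chromosomes and no counting of both mates, so they cannot test for these.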

Additional observations from a re-analysis of the deposited data

How the results depend on the processing

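Lef1 kept its direction and its call in all 16 alternatives, and no other member was called in any of them except Tcf7l1 with no filter on low counts, which made 2 called members. Tcf7l2 changed sign around 0, to 0.0149 with no filter, and ranged from -0.16 to 0.12 when 1 library was left out. In all, 2307 genes were called, 1535 without chromosomes 1, 14 and Y, where fewer genes were tested, and 1374 (without WT replicate A, with 1470 when WT replicate B was left out) to 2784 (without knockout replicate A) with 1 library left out. The 4 called nuclear partners became 2 to 4 with 1 library left out, where Tnik was called each time, Tle6 entered without knockout replicate A and Ssbp4 without knockout replicate C. They became 5, with Ssbp4 added, under RLE scaling, DESeq2 and no filter, and 3 without chromosomes 1, 14 and Y, which removes Cdc73. The 2 called Tcf7l1-repressed genes became 4 with no filter, 1 without chromosomes 1, 14 and Y, which removes Tfcp2l1, and 2 to 4 with 1 library left out. The 1 called feedback gene became 0 to 2 with 1 library left out (edgeR; DESeq2 on all libraries called 1). At an unadjusted p under 0.05 there were 1 or 2 in those fits. Without division by exon length the Lef1 share differed by -7.46 points in place of -6.66. The causes of the other changes were not tested.

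The letters A, B and C are shared by the genotypes. Deviations from the group means correlated at 0.14 for A, -0.03 for B and 0.23 for C over genes. Between unlike letters the correlations ran from -0.25 to 0.12, the highest for WT replicate B with knockout replicate A. The values for A and C lay above all of these, and that for B did not. Whether the letters are pairs was thus not settled, and the main fit did not use them. With the replicate block 2686 genes were called, 1 member and 6 partners, Ctr9 and Ssbp4 added. A single knockout library held 16 to 36 counts of Lef1, which limits the precision of its remaining level.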
